A study of Drosophila melanogaster with 6 samples.

Results

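The transcripts of bark beetle (bark) and of other epithelial junction genes were followed in unfertilized Drosophila melanogaster eggs. The genes were chosen by name: the tricellular junction genes bark, Gli, aka and M6, the septate junction genes cora and Nrx-IV, and shg, which encodes E-cadherin. In the reference gene table aka (anakonda) is a synonym of bark, so the 7 symbols name 6 genes, out of 13943 features in each library. The choice of bark followed from its large rise in these same libraries, and the other genes were added for their place in junctions with results of the series known. For that reason the differences of the 6 genes between groups are given as a description, with no test.

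The eggs came from mothers of 2 genotypes. The label MTD>MEK marks germline overexpression of wild-type MEK, which phosphorylates and switches on ERK, and MTD>MEK_F53S marks overexpression of MEK with the F53S change, a gain-of-function form of the kind found in RASopathies. Both transgenes sat at the same genomic site and were driven by MTD-GAL4, a set of drivers active in the female germline, and the fathers were sterile. Eggs were collected over 0 to 30 min, with 3 libraries per genotype that the submitters call biological replicates. Each genotype was 1 fly line, so an effect of the kinase and one of the line cannot be told apart.

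Epithelial cells are joined by belts of adherens junctions, in which E-cadherin binds catenins, and, more basally in most fly epithelia, by septate junctions that seal the space between cells. Where the corners of cells meet, tricellular junctions close the remaining gap, and Bark, Gliotactin and M6 gather there. An unfertilized egg is a single cell, and as a rule its transcripts are stored there by the mother. Maternal E-cadherin and its catenins hold the first epithelium of the embryo together, whereas septate junctions form later in development.

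bark encodes a large transmembrane protein with scavenger receptor-like domains that marks cell corners early and is needed for septate junctions to mature. The gene lies on 2L, 3787167 to 3802726 on the plus strand in dm6, and no other annotated gene overlaps its exons. The wild-type MEK libraries held 32, 12 and 31 bark reads in replicates 1, 2 and 3, which is 0.700, 0.352 and 0.866 CPM (reads scaled to library size with TMM factors). The MEK F53S libraries held 1838, 4040 and 3706 reads, or 45.2, 83.3 and 70.1 CPM. Every MEK F53S library was thus far above every wild-type MEK library, and the closest pair still differed 52.3-fold. Mean levels were 0.639 ± 0.262 CPM (SD, n = 3) and 66.2 ± 19.3 CPM (n = 3), a log2 fold change of 6.68 ± 0.36 (SE of the edgeR fit across all genes). On the TPM scale, which corrects for length, bark exceeded 1.82% of the 7539 genes tested with wild-type MEK and 18.7% of them with MEK F53S.

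M6 encodes a membrane protein of the proteolipid family that gathers at tricellular junctions. It lies on 3L, 21507852 to 21512749, plus strand. Its level was 8.60, 12.4 and 11.0 CPM in the wild-type MEK libraries and 64.0, 83.9 and 80.5 CPM in the MEK F53S libraries. The groups did not overlap, and the spread within each was small beside the gap between them (log2 fold change 2.84 ± 0.19 SE). SAK, on the other strand, shares 23.3% of the exon bases of M6, and the sources used here do not state whether reads were assigned by strand. SAK itself stood at 129 ± 11.4 and 124 ± 16.9 CPM in the 2 groups, with overlapping libraries.

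Gli encodes Gliotactin, a cholinesterase-like transmembrane protein of tricellular junctions (2L, 15756002 to 15762758, minus strand). It was measured at 23.0, 24.5 and 23.0 CPM with wild-type MEK and at 19.5, 28.0 and 18.9 CPM with MEK F53S. The MEK F53S libraries lay on both sides of the wild-type ones (log2 fold change -0.08 ± 0.19 SE), and the sign depended on the method, with 0.09 for limma on log2(TPM + 1). The balance among the tricellular transcripts therefore differed between the groups. On the TPM scale the ratio of bark to Gli went from 0.0154 ± 0.0063 in wild-type MEK libraries to 1.59 ± 0.374 in those of MEK F53S (n = 3 each), and that of M6 to Gli was 0.724 ± 0.105 and 6.15 ± 1.12.

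cora encodes Coracle, the FERM-domain protein that links septate junction complexes to the cell cortex, and Nrx-IV encodes Neurexin IV, the transmembrane protein to which Coracle binds. cora (2R, 19229063 to 19243751, plus strand) was at 4.25, 2.14 and 3.52 CPM with wild-type MEK and at 27.0, 46.7 and 31.7 CPM with MEK F53S. The groups were far apart, with the lowest MEK F53S library 6.36-fold above the highest wild-type one (log2 fold change 3.40 ± 0.30 SE). Nrx-IV (3L, 12146519 to 12156990, plus strand) was at 70.0, 45.2 and 43.3 CPM with wild-type MEK and at 69.4, 105 and 80.5 CPM with MEK F53S. Wild-type replicate 1 reached the lowest MEK F53S library, so these groups touched (log2 fold change 0.69 ± 0.22 SE). The ratio of cora to Nrx-IV, on the TPM scale, was 0.0924, 0.0743 and 0.124 in the wild-type MEK libraries and 0.540, 0.632 and 0.549 in the MEK F53S libraries. The partners of this complex were thus nearer to each other in level in every MEK F53S library.

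shg, the E-cadherin gene (2R, 21049654 to 21057197, minus strand), was by far the most abundant of the 6 transcripts and went the other way. It was at 637, 666 and 704 CPM with wild-type MEK and at 415, 446 and 425 CPM with MEK F53S. The groups did not overlap, and each was tight (669 ± 33.5 and 429 ± 16.1 CPM, log2 fold change -0.64 ± 0.10 SE, n = 3 each).

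**Figure D1:**
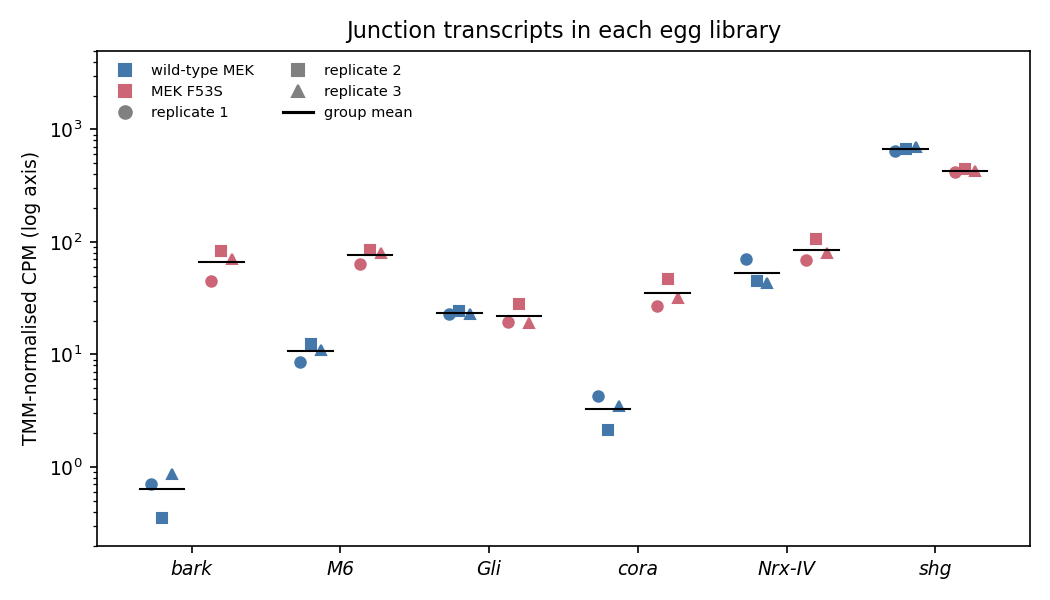
Level of each of the 6 junction genes in each library, as TMM-normalised CPM on a log axis; points are single libraries, shapes are replicate numbers and black lines are group means. bark moves from under 1 CPM in all wild-type MEK libraries to between 45.2 and 83.3 CPM in MEK F53S, M6 and cora also separate upwards, Gli and Nrx-IV overlap, and shg separates downwards.

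In the fit across all 7539 genes tested, 25.2% were called at an adjusted p under 0.05 (edgeR's quasi-likelihood test with Benjamini-Hochberg adjustment), 12.3% higher and 12.9% lower in MEK F53S. All 6 junction genes passed the filter on low counts, and 5 of them were past that threshold, bark, M6, cora and Nrx-IV upwards and shg downwards. Groups failed to overlap for 4 of the 6, against 42.3% of all genes tested. Since the genes were chosen with this contrast known, nothing is read from these counts. The call of Nrx-IV was lost with a replicate block, with limma on log2(TPM + 1) and in the fits without MEK F53S replicate 1, 2 or 3 or without wild-type MEK replicate 2 or 3, where its log2 fold change ranged from 0.50 to 0.85. The other 4 kept theirs in all 14 alternative fits. These fits use the same libraries by which the genes were chosen, so this describes only how the calls depend on method. A rise at least as large as that of cora was reached by 0.995% of all genes tested, and one as large as that of M6 by 1.31%. These shares also come from the libraries by which the genes were chosen, so nothing is read from them.

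The libraries of one group also differed among themselves in the same way for several genes. MEK F53S replicate 2 was the highest MEK F53S library for all 6 genes, and replicate 1 was the lowest for each of them but Gli. With wild-type MEK there was no shared order: replicate 2 was lowest for bark and cora but highest for Gli and M6. Within MEK F53S the highest library exceeded the lowest 1.84-fold for bark, 1.73-fold for cora and 1.08-fold for shg.

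The order of levels, taken per length as TPM, changed between the groups. With wild-type MEK it ran shg, Nrx-IV, Gli, M6, cora, bark, at 104 ± 5.19, 12.6 ± 4.43, 5.84 ± 0.294, 4.21 ± 0.411, 1.21 ± 0.444 and 0.0906 ± 0.0375 TPM, and no neighbours in this order overlapped. With MEK F53S it ran shg, M6, Nrx-IV, cora, bark, Gli, at 75.3 ± 3.11, 38.3 ± 5.13, 23.2 ± 5.27, 13.5 ± 4.29, 10.2 ± 3.34 and 6.36 ± 1.47 TPM. There cora overlapped bark, and bark overlapped Gli, so neighbours in the last 3 places are not separated by their spread. cora and Gli did not overlap, with the lowest cora library at 10.1 TPM and the highest Gli library at 8.05 TPM. Within each MEK F53S library cora was above bark and bark above Gli. Scaled instead by the annotated exon length, an order added after seeing the data, the wild-type order was the same and bark stood above cora in MEK F53S, again with overlap (6.48 ± 1.89 and 5.81 ± 1.70 CPM per kilobase). On both scales M6 went from a place below Gli to one above Nrx-IV, and Gli ended last.

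The levels per length rest on the TPM column, so the lengths behind it were checked. Read count divided by TPM is proportional to the effective length that TPM was divided by, with 1 factor per library, set here by genes with 1 annotated transcript. For at least 99.8% of such genes with 50 reads or more, the effective length column of the deposited tables matched that value within 1%. Among genes with several transcripts it matched for 8.04% of genes or fewer in each library, and the median implied length was 2 times the deposited one. Of the junction genes, shg matched in all 6 libraries, whereas the implied length was 2 to 3 times the deposited one for Gli, 4.79 to 6 times for M6, 1 to 4.98 times for cora, 1 to 1.59 times for bark and 1 to 1.11 times for Nrx-IV. The length columns of these 5 genes were therefore not read as transcript lengths.

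With the deposited length multiplied by that ratio, every junction gene fell within the range of its annotated transcripts. bark was at 10071 to 10104 bases, against annotated transcripts of 10071 to 10130 bases, and Gli was at 3975 to 4007 bases. M6 was at 1951, 2052 and 1949 bases with wild-type MEK and at 1945, 1951 and 1945 bases with MEK F53S. cora was at 5465, 5627 and 5894 bases with wild-type MEK and at 5899, 5895 and 5892 bases with MEK F53S, near its longest annotated transcript of 5899 bases in all but wild-type MEK replicates 1 and 2. For no junction gene did the longest value exceed the shortest more than 1.08-fold. The log2 ratio of mean TPM, a scale that includes these lengths, was 6.81 for bark, 3.18 for M6, 3.48 for cora, 0.88 for Nrx-IV, -0.47 for shg and 0.12 for Gli.

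The genes around bark were compared to see whether the locus as a whole differed. Of the 3 annotated genes on each side, 4 are in the tables, and the pseudogene CR31958 and lncRNA:CR44076 were not analysed here. Reph lies 818 bases downstream of bark on the same strand, and it rose from 72.05 ± 11.3 to 110 ± 16.5 CPM (adjusted p = 0.0221 in the edgeR test, n = 3 per group, log2 fold change 0.61 ± 0.16 SE). CG3407, the next gene, stood at 95.1 ± 7.63 and 73.2 ± 3.80 CPM (adjusted p = 0.0506, log2 fold change -0.38). Upstream, the transcription factor gene bowl had 0, 4 and 0 reads with wild-type MEK and 10, 20 and 29 with MEK F53S. It was thus higher in every MEK F53S library but did not exceed 0.548 CPM and was not called (adjusted p = 0.128 in the edgeR test, log2 fold change 3.36 ± 1.49 SE). CG31960 had 0 reads in all libraries. The rise of Reph was thus small beside the difference seen for bark.

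**Figure D2:**
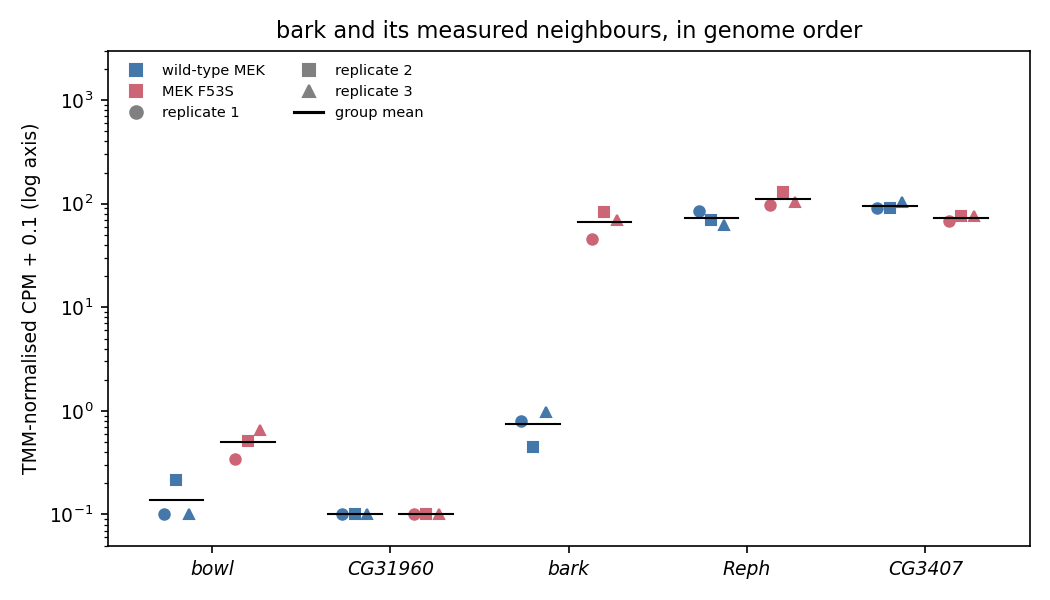
bark and its 4 measured neighbours in genome order, as TMM-normalised CPM plus 0.1 on a log axis; points are single libraries, shapes are replicate numbers and black lines are group means. bark goes from under 1 CPM to between 45.2 and 83.3 CPM. Reph is higher in every MEK F53S library (means 72.05 and 110 CPM) and CG3407 lower in every one (95.1 and 73.2 CPM). bowl is near 0 but higher with MEK F53S, and CG31960 is at 0.

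Septate junction genes other than cora and Nrx-IV were called about as often as all genes tested. Of 21 tested, 3 rose, 2 fell and 16 were not called, so 23.8% were called against 25.2% of all genes tested. Among the rises, nrv2 passed the count filter only through its MEK F53S reads, so only a rise could be called for it. The median log2 fold change of the list was -0.07, also with nrv2 at its bound, against 0.05 for all genes tested. Nrg, which encodes the cell adhesion protein Neuroglian of septate junctions, rose from 76.2 ± 12.2 to 145 ± 12.3 CPM (adjusted p = 0.00222, n = 3 per group, log2 fold change 0.93 ± 0.15 SE). nrv2, a beta subunit gene of the sodium pump that septate junctions contain, had 0 reads in all wild-type MEK libraries and 1.21 to 1.90 CPM with MEK F53S, which is at least 20.0-fold more when each wild-type library is set at a floor of 3 counts (counting error only). vari, which encodes a scaffold protein that binds Neurexin IV, went from 17.6 ± 1.25 to 26.02 ± 4.43 CPM, with a call that 9 of the 14 alternative fits did not give.

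The 2 falls were in Galphao, a G protein alpha subunit gene, from 308 ± 43.3 to 209 ± 18.2 CPM (adjusted p = 0.0142, log2 fold change -0.56), and in wun, a lipid phosphate phosphatase gene (-0.61, adjusted p = 0.0477). The call of Galphao was lost without MEK F53S replicate 1 or 3 or wild-type MEK replicate 2. That of wun was lost in 9 of the 14 alternative fits. Falls numbered 0 without MEK F53S replicate 1 or wild-type MEK replicate 2, 1 without MEK F53S replicate 3 or wild-type MEK replicate 3, with a replicate block, with upper-quartile factors, with either length offset or with limma, and 3 without MEK F53S replicate 2. Rises numbered 2 with a replicate block, with the offset from the deposited effective length, with limma and whichever library was left out. DESeq2 gave 4 rises and 3 falls. Core components such as kune and sinu, both of the claudin family, stood at 14.6 and 14.5 CPM and at 117 and 97.1 CPM in the 2 groups and were not called. The smooth septate junction genes Ssk, mesh, Tsp2A and hoka, which act in the gut, had too few reads to be tested in any library.

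All called genes of the adherens junction list fell, the direction also seen for shg. Of 19 tested genes of adherens junctions and the cadherin family, 0 rose, 8 fell and 11 were not called, so 42.1% were called, and their median log2 fold change was -0.33. Over all genes tested 25.2% were called, 12.9% as lower, and the median was 0.05. At an unadjusted p under 0.05, 3 were higher; DESeq2 called 2 rises and limma 1. p120ctn and alpha-Cat, whose proteins are catenins bound to E-cadherin or its complex, fell from 1568 ± 54.98 to 837 ± 27.2 CPM (adjusted p = 0.000192, log2 fold change -0.91 ± 0.09 SE) and from 1120 ± 121 to 604 ± 66.9 CPM (-0.89, adjusted p = 0.00108). arm, the beta-catenin gene, was at 974 ± 65.4 and 1154 ± 10.3 CPM and was not called (adjusted p = 0.0819, log2 fold change 0.24). On the TPM scale the ratio of shg to arm went from between 0.0957 and 0.111 with wild-type MEK to between 0.0622 and 0.0661 with MEK F53S, whereas that of shg to p120ctn was 0.319 ± 0.0126 and 0.353 ± 0.00228.

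The largest called fall of this list was that of ed, from 653 ± 38.6 to 306 ± 11.6 CPM (adjusted p = 0.000133, log2 fold change -1.10 ± 0.10 SE); its protein, Echinoid, is an immunoglobulin-domain adhesion molecule of adherens junctions. sdk, whose product Sidekick sits at tricellular adherens junctions, fell from 567 ± 39.1 to 324 ± 47.5 CPM (-0.81, adjusted p = 0.00217), and kug, an atypical cadherin gene, fell by 0.70. The tricellular transcripts bark and M6, in contrast, were higher in MEK F53S. Cals, Magi and Cad87A were the other falls. The fall count was 4 with limma and ranged from 7 to 11 in the fits that leave out a library, and the rise count was 1 without wild-type MEK replicate 1.

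Among polarity genes, too, most calls were falls. Of 17 tested, 1 rose, 7 fell and 9 were not called, so 47.1% were called against 25.2% of all genes tested, with a median log2 fold change of -0.18. The basolateral genes l(2)gl, scrib and dlg1 had log2 fold changes of -0.96, -0.64 and -0.46, and l(2)gl went from 1344 ± 30.7 to 693 ± 78.9 CPM (adjusted p = 0.00042). veli, whose product is part of the Crumbs complex, fell by 1.05 and baz, the Bazooka gene, by 0.62 (adjusted p = 0.00136 and 0.0088 in the edgeR test). Moe, the gene of the cortical FERM-domain protein Moesin, rose from 331 ± 12.7 to 527 ± 66.4 CPM (adjusted p = 0.00346, log2 fold change 0.67). crb itself, at 279 ± 31.3 and 255 ± 55.97 CPM, was not called. Falls numbered 4 with limma and without MEK F53S replicate 1 or wild-type MEK replicate 2, 3 without MEK F53S replicate 3 and 5 without wild-type MEK replicate 3. Rises numbered 2 without MEK F53S replicate 2, with no count filter, with either length offset or with limma. Across the 3 lists, 10 of the 21 called genes stayed called in all 14 alternative fits: Nrg, nrv2, ed, p120ctn, alpha-Cat, sdk, l(2)gl, veli, scrib and Moe. These fits reuse the same libraries, and the matching share over all called genes is not given here. The count thus describes only how these calls depend on method.

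**Figure D3:**
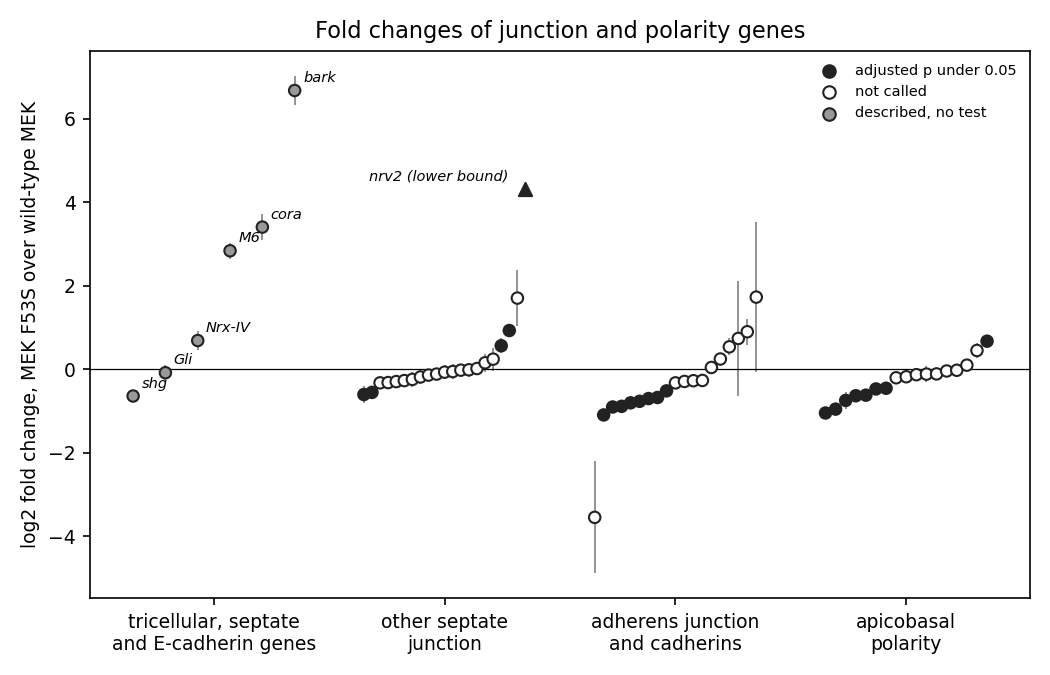
Log2 fold change (MEK F53S over wild-type MEK), with SE bars, for the 6 junction genes (grey, no test) and for 3 lists, each point 1 tested gene; black points passed an adjusted p under 0.05, white points did not, and the triangle is the lower bound of nrv2. Calls in the adherens junction list are all falls (8 of 19), and polarity calls are 7 falls and 1 rise. Septate junction calls are 3 rises and 2 falls, with only a rise open to nrv2.

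By the shape of their levels over the 6 libraries, the genes nearest to bark were Pvr, Cys, Nepl19, Kr-h1 and br. Nearness was the Euclidean distance between log2(CPM + 0.1) values, each gene centred on its own mean, among 6203 other genes whose mean was 5 CPM or more. Pvr, a receptor tyrosine kinase gene, was nearest at a distance of 1.04, with 1.12, 1.35 and 1.23 CPM in the wild-type MEK libraries and 102, 124 and 130.5 CPM in the MEK F53S libraries. Cys, a cystatin-like protease inhibitor gene, followed at 1.52 and Nepl19 at 1.60, and the transcription factor genes Kr-h1 and br at 1.95 and 2.23. Each of the 5 was scarce in every wild-type MEK library and higher in every MEK F53S library. They were chosen for nearness to bark, so this pattern follows from the choice. None of the 5 is a junction gene. CG45075 shares 78.6% of the exon bases of Kr-h1, and an antisense gene shares 90.7% of those of Cys, so their values are uncertain. With a pseudocount of 1 CPM 4 of the 5 genes were again among the nearest, and by Pearson correlation 0 of the 5 were.

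The labelled tissue was checked against marker genes. The 7 egg and germline markers summed to 10617 to 11020 CPM with wild-type MEK and 8125 to 9864 CPM with MEK F53S. Most of that sum was smg, at 6985 ± 569 and 4830 ± 221 CPM. All 7 were tested, and orb, png and grk were called higher and bcd and smg lower. Over all genes tested 12.3% were called higher and 12.9% lower. bcd went from 899 ± 51.3 to 256 ± 27.9 CPM and orb from 285 ± 96.4 to 737 ± 179 CPM. In such bulk libraries fewer cells of a type and less RNA per cell cannot be told apart. Of 30 follicle cell and eggshell markers, 17 had 0 reads in all libraries, and the whole list reached 1.91 to 3.41 CPM in wild-type MEK libraries and 1.60 to 2.08 CPM in those of MEK F53S. The 19 structural eggshell genes summed to 22 reads or fewer per library. Of 16 markers of embryonic epithelium and trachea, 9 had 0 reads throughout, and the whole list reached 12.5 to 16.7 CPM in wild-type MEK libraries and 3.30 to 4.29 CPM in those of MEK F53S. Most of that sum was the tracheal transcription factor gene trh, at 10.3 ± 0.444 and 1.86 ± 0.145 CPM, while grh, an epithelial transcription factor gene, was at 0.489 ± 0.440 and 0.510 ± 0.464 CPM. Of the 5 epithelium and trachea markers tested, 3 were called, all lower in MEK F53S: trh, kkv and dsx-c73A. Of the 2 follicle cell and eggshell markers tested, ct was called lower, at 0.670 CPM or less. kkv and ct passed the count filter only through their wild-type MEK reads, so only a fall could be called for them. Over all genes tested 12.9% were called lower.

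In wild-type MEK replicates 1, 2 and 3 the 18 early zygotic markers summed to 14.4, 15.8 and 16.3 CPM. In the MEK F53S replicates the sums were 22.3, 10.8 and 28.9 CPM. Most of the wild-type sum was Sry-alpha, at 12.9, 14.9 and 14.9 CPM with wild-type MEK and 11.7, 6.04 and 11.6 CPM with MEK F53S. Its exons lie wholly within those of Sry-beta on the same strand, so its reads are uncertain. In the wild-type MEK libraries the other 17 markers summed to 1.42, 0.940 and 1.34 CPM, and in those of MEK F53S to 10.6, 4.80 and 17.3 CPM, a sum taken after the values were seen. Without Sry-alpha this sum was thus higher in every MEK F53S library. Much of it was sisA, at 6.82, 0.948 and 8.79 CPM in MEK F53S replicates 1, 2 and 3. zen was instead highest in replicate 2, at 1.35, 2.33 and 1.38 CPM. The markers thus had no shared order among the MEK F53S libraries. Of the 4 early zygotic markers tested, 2 were called, both higher in MEK F53S, a call given to 12.3% of all genes tested. These 2, sisA and Kr, passed the count filter only through their MEK F53S reads. A fall could not have been called for them, so nothing is read from this count. sisA, an X-linked gene of sex determination expressed early in the embryo, had 1, 0 and 0 reads with wild-type MEK and 277, 46 and 465 reads with MEK F53S (adjusted p = 0.00102 in the edgeR test across all genes). Kr, the gap gene Krüppel, had 0, 5 and 0 reads with wild-type MEK and 34, 22 and 107 reads with MEK F53S (adjusted p = 0.0422 in the same test). Whether any of the marker lists has a part in the differences of the junction genes was not tested. Dsor1, the fly MEK gene, stood at 1370 ± 182 and 1336 ± 229 CPM, with overlapping libraries, and its reads do not separate the transgene from the gene of the fly. Library totals ranged from 37224814 to 48756295 rounded counts.

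**Figure D4:**
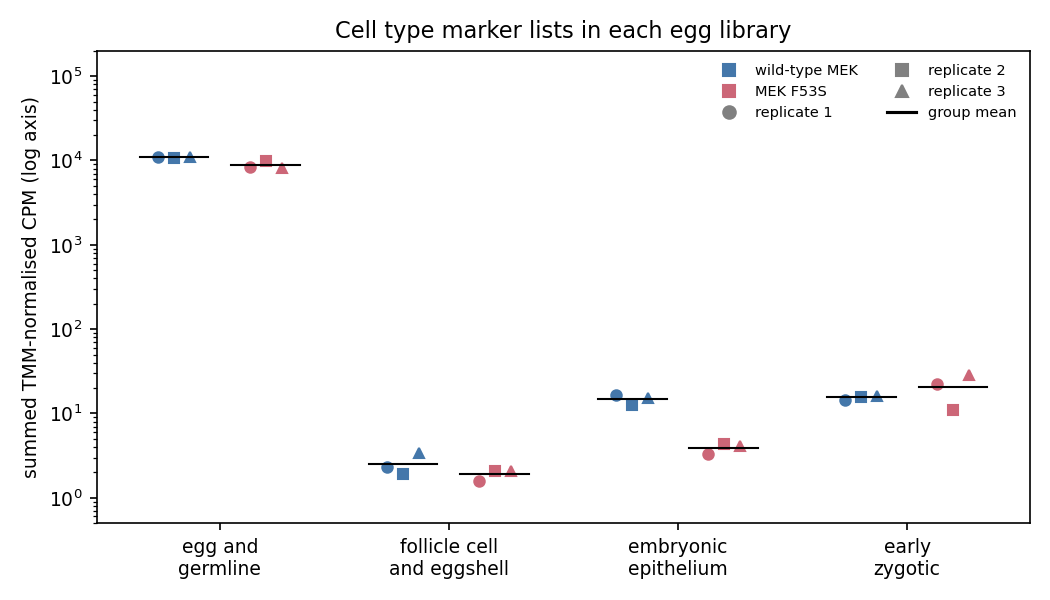
Summed TMM-normalised CPM of 4 marker lists in each library, on a log axis; points are single libraries, shapes are replicate numbers and black lines are group means. Egg and germline markers are at 8125 CPM or more everywhere, with sums lower in MEK F53S. Follicle cell and eggshell markers stay at or under 3.41 CPM in all libraries, and embryonic epithelium markers are lower in MEK F53S. Early zygotic markers, with Sry-alpha included, are uneven among the MEK F53S libraries.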

How the data were processed

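RNA-seq was measured in 6 libraries of unfertilized eggs, 3 per genotype. Reads were quantified by the authors with Salmon 0.8.2, and the build is dm6, per the submitters' processing notes; no source used here states the transcript set, the strand setting or bias options. Libraries were directional, per the labels' protocols. The deposited estimated counts are unscaled. The deposited TPM were divided by effective length and brought to 1 total by the authors. The deposited length and effective length columns, in bases, disagree with counts and TPM for most genes with several transcripts, and lengths were also taken from counts divided by TPM.

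Estimated counts were rounded, filtered with filterByExpr (minimum count 10, minimum total 15), scaled by TMM and compared by quasi-likelihood in edgeR 4.0.16 (R 4.3.3), with Benjamini-Hochberg adjustment over all 7539 genes, called at 0.05. The filter kept at least 99.98% of counts per library. Depth limits the values of scarce genes; floors of 3 counts cover counting error only. Symbols of 13831 features were matched and 112 were not, and 1 list symbol, nos, was left out as ambiguous. Positions, transcripts and overlaps came from Ensembl release 115, in dm6 coordinates. Sequences of the genes were not used here.

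The genes, lists, markers and the rule for named genes were chosen with earlier results of these data known. The rule named the 6 genes, up to 5 called genes of each list in each direction by p, 3 neighbours of bark on each side, the 5 genes nearest to bark and Dsor1; others named were chosen after their values were seen. Alternatives were other scalings, no count filter, an offset from the deposited effective length, a replicate block, DESeq2 1.42.0, leaving out each library, limma 3.58.1 on log2(TPM + 1) and, added after seeing the data, an offset from the length implied by counts and TPM. The test was tested on data simulated for this comparison, in 5 draws of 7372 to 7381 tested genes. It recovered 69.4% of 490 genes simulated at 2-fold and 21.3% of 492 simulated at 1.5-fold. False ones made up 8.62% of 487 calls, above the 5% at which the adjustment aims. Over the 5 draws only those 490 and 492 genes were changed, a smaller share than the 25.2% called in the data. These rates may therefore differ in the real comparison. No library repeated another: the chi-square of replicate pairs, per degree of freedom, was 31.2 or more. The labels give no batch.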

Additional observations from a re-analysis of the deposited data

How the results depend on the processing

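Calls over all genes numbered 930 higher and 970 lower, with 424 to 1304 higher and 506 to 1310 lower when a library was left out, and 1049 higher and 572 lower with limma on log2(TPM + 1). The counts of both directions were within 1.5 times of these under the other scalings, no filter, the offset from the deposited effective length (a column that disagrees with counts and TPM), the offset from the length implied by counts and TPM (808 and 969; added after seeing the data), the replicate block (744 and 742) and DESeq2. Among septate junction genes falls numbered 1 with upper-quartile factors, either length offset, a replicate block and limma, and 0 to 3 without a library. Rises of that list numbered 2 with the offset from the deposited effective length, a replicate block, limma and whichever library was left out, and 4 with DESeq2. Adherens junction rises numbered 2 with upper-quartile factors and DESeq2, 1 with either length offset and limma, and 0 to 1 without a library, and its falls numbered 4 with limma. Polarity rises numbered 2 with no filter, either length offset and limma, and 1 to 2 without a library, and its falls numbered 4 with limma and 3 to 7 without a library. The log2 fold changes of bark, M6, cora, Nrx-IV and shg kept their sign throughout. That of M6 was 3.31 with the deposited effective length, 3.06 with the implied one and 3.18 as a ratio of mean TPM; those of bark and cora were 3.31 and 2.69 with limma, where the pseudocount shrinks low genes; and that of shg was -0.46 with limma, -0.47 as a ratio of mean TPM and -0.71 to -0.62 without a library. Without a library bark ranged from 6.38 to 6.91, M6 from 2.67 to 2.95 and cora from 3.15 to 3.59. By Pearson correlation 0 of the 5 genes nearest to bark were shared. Other causes were not tested. Replicate numbers did not pair the libraries: same-numbered libraries correlated at -0.14, -0.13 and 0.19 in their deviations from group means. The block ended the calls of Nrx-IV, vari and wun. Depth limits bark with wild-type MEK, at 12 to 32 reads.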
